A study of Danio rerio with 15 samples.

Results

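The change in RNA levels over the basal stretch of the zebrafish caudal fin was followed by setting the middle fin against the proximal fin, gene by gene, over all 23556 genes of the authors' deposited table for that pair. The series lists 23926 genes over its 3 pairwise tables. The middle and the proximal group each held 5 libraries, and the 5 distal libraries of the series enter only where the next step towards the tip is set beside this one. All fish were AB wild type with no treatment named in the labels. Tissue of 4 fish, 2 male and 2 female, went into each library, which is therefore a mixed sample of individuals and of all tissues of that stretch of fin. The sources used here do not give the age of the fish or the points along the rays where the regions were cut. Total RNA was depleted of ribosomal RNA and sequenced as 50 bp pairs.

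The caudal fin of teleosts is built on bony rays covered by epidermis and filled with fibroblasts, vessels, nerves and pigment cells, and its rays join the body at the fin base. Fin cells keep a memory of where along the proximodistal axis they lie, and a fin cut at any level regrows the missing part. Positional memory is named in the title of the series, and the middle against proximal comparison asks which transcripts change between the base and the midpart of the fin. In other appendages, homeobox genes of the Meis and Pbx groups and retinoic acid are known for base-side roles, and Dlx and Sall genes for roles further out.

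Levels are normalized counts, that is, reads of a gene divided by a size factor for the library. Only position means were deposited, and the reads of the single libraries were worked back from the digits of those means for 23531 of the 23556 genes. Libraries are numbered by falling size factor at their position, so library 1 is not the labels' replicate 1. Over the solved genes a middle library held from 12268833 to 13758066 reads and a proximal library from 11848165 to 12516248. These genes carried 67.7% of the normalized counts in the middle and 63.6% in the proximal fin, because the most abundant transcripts were among the 25 genes without a single solution. A floor of 3 reads over 5 libraries equals 0.593 normalized counts in the middle fin and covers counting error only. The series' design text calls the libraries biological replicates. In a principal component analysis of 15078 genes the first component took up 34.3% of the variance. Its scores lay from −21.7 to −13.9 in the middle and from 10.9 to 22.5 in the proximal libraries.

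The middle fin differed from the proximal fin in 1721 genes, 7.31% of those tested, at an authors' adjusted p under 0.05. Of these, 827 were higher in the middle fin (3.51% of all genes) and 894 were lower (3.8%). The changes were mostly small. The median called gene moved by 0.66 on the log2 scale without regard to sign, and the smallest called change was 0.3. Falls were larger than rises: 331 called genes were at least 2-fold lower and 155 at least 2-fold higher in the middle fin, and beyond 4-fold there were 108 falls and 34 rises. The median log2 ratio was −0.79 among genes called lower and 0.56 among genes called higher, against −0.01 over all genes. Among genes with a mean of at least 1000 normalized counts over both positions the calls leaned the other way, with 225 higher and 111 lower. Among those with a mean between 10 and 100 there were 184 higher and 338 lower. The 5 middle and 5 proximal libraries did not overlap in 1359 of the 1716 called genes with solved counts, against 2177 of all 23531 solved genes, or 9.25%. A limma fit of the recovered counts called 1185 genes higher and 1146 lower and shared 1617 calls with the authors. It tested 18473 genes and called 2331. When its libraries were scaled by the totals of solved genes, the same fit called 921 higher and 1416 lower, so the split between directions depends on the scale.

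The recovered libraries fell into pairs across positions. By their deviations from the position means, each middle library matched 1 proximal library and no other, with correlations across genes of 0.21 to 0.58. The sources used here do not say what a pair shares, and the matching was read from these same libraries after their values were seen, so a fit that uses it can give p-values that are too small. With a block for each pair, limma called 5211 genes, or 28.2% of those tested, 2778 higher and 2433 lower. It kept 1641 of the 1642 authors' calls that it tested, in the same direction, and the median called change without regard to sign was 0.36 on the log2 scale. List counts given with the block cover the members that passed limma's filter. Counts of both directions together are to be read against the 28.2% called over all 18473 genes tested. A count in a single direction is to be read against the 2778 higher or the 2433 lower of those genes. Other limma values in the text come from fits without the block. Under it all 156 of the named genes called by the authors that could be fitted were called, with a highest adjusted p of 0.0146. The number of genes called thus depends on whether the fit uses the pairs, and a gene that was not called is not shown to be level.

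**Figure D1:**
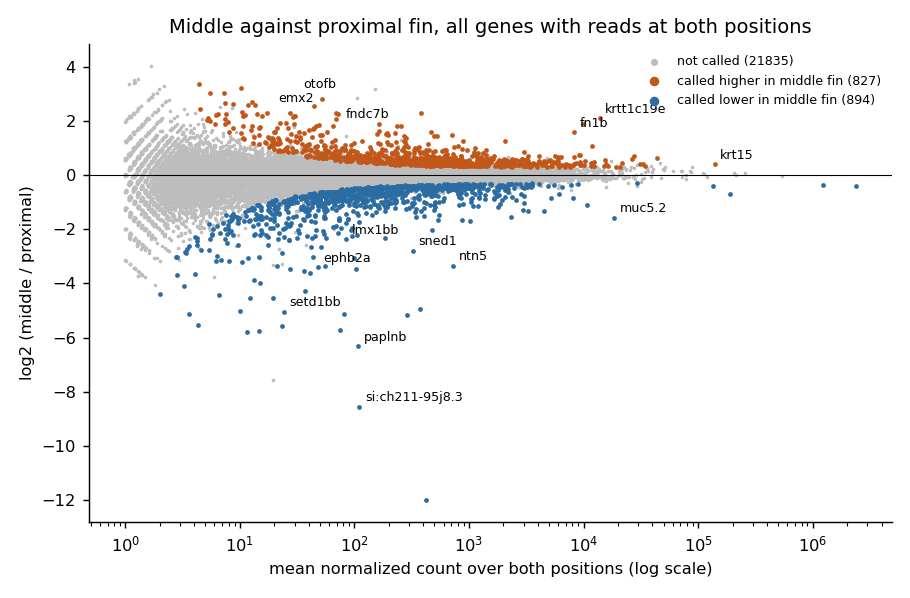
Log2 ratio of the middle over the proximal mean (vertical axis) against the mean normalized count over both positions (horizontal axis, log scale) for each gene with reads at both positions. Genes called higher in the middle fin (827 in all) are orange and those called lower (894 in all) are blue. Called genes with no read at either of the positions, such as scpp7 and scpp6 in the middle fin, are counted but not drawn. The largest falls drawn reach further from 0 than the largest rises.

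The 10 largest falls among called genes with a mean of at least 20 normalized counts over both positions had middle means from 0 to 15.9. The secretory calcium-binding phosphoprotein genes scpp7 and scpp6, members of a family that encodes matrix proteins of mineralized tissue, had no read in any middle library. In the 5 proximal libraries scpp7 held 120, 749, 22.3, 95.3 and 303 normalized counts, so the middle level was at least 435-fold lower when the floor of 3 reads over the middle libraries is used. For scpp6 the proximal libraries held 87.8, 342, 17.2, 54.8 and 149 normalized counts. With the same floor of 3 reads the middle level was at least 219.5-fold lower. The authors' adjusted p was 0.000397 for scpp7 and 9.93e-05 for scpp6. Every proximal library lay above every middle library, yet the proximal values themselves spread widely, and library 2 was the highest and library 3 the lowest for both genes. The limma fit with its filter called both genes lower. In a limma fit without a filter on low counts the adjusted p was 0.135 for scpp7 and 0.0529 for scpp6.

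The gene si:dkey-22i16.3 had 1 read over the 5 middle libraries and 387, 2257, 91.1, 462 and 1022 normalized counts in the proximal ones. Its proximal to middle ratio was 4149.8, with an exact Poisson interval (95%, for the middle count alone) of 766 to 168681. The gene paplnb, which encodes a papilin-like matrix glycoprotein, averaged 2.67 ± 2.51 in the middle and 214 ± 165 in the proximal fin (SD, n = 5 each). The limma fit with its filter called si:dkey-22i16.3 and paplnb lower. Without a filter it gave an adjusted p of 0.162 for si:dkey-22i16.3 and 0.0704 for paplnb, and the fit without middle library 4 gave 0.0529 for paplnb. For c6ast1, an astacin family protease gene, the means were 0.942 ± 1.31 and 45.4 ± 35.4, and for ENSDARG00000095523 they were 15.9 ± 13.9 and 566 ± 308, middle first. Of these 10 genes, 7 were highest in proximal library 2 and 7 were lowest in proximal library 3. Over the 22 genes called at least 8-fold lower with a mean of at least 20 normalized counts, library 2 was the highest for 11 and library 3 the lowest for 11.

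The mesothelin gene mslna, named after a surface protein of mesothelial cells in mammals, had 5.38, 4.03, 6.05, 4.04 and 3.05 normalized counts in the middle libraries. Its proximal libraries held 222, 232, 110, 130 and 96.2 normalized counts, a 35.0-fold lower level in the middle fin (adjusted p = 3.71e-13). The groups were far apart, and the proximal libraries differed by less than they did for scpp7. The gene si:ch211-95j8.3 had 3 reads over the middle libraries and 395, 350, 63.8, 186 and 108 normalized counts in the proximal ones, a ratio of 377 with a Poisson interval of 127 to 1804. The gene ENSDARG00000025783 was 52.9-fold lower in the middle fin, with 2.76 ± 1.49 against 146 ± 64.1. The Set1-type histone methyltransferase gene setd1bb was 33.1-fold lower, with 1.42 ± 1.36 against 46.8 ± 29.4. In the authors' deposited distal and middle table, mslna was higher again in the distal fin (log2 of distal over middle 5.81, adjusted p = 1.37e-52), as was si:dkey-22i16.3 (9.48, adjusted p = 2.5e-51). That table shares the middle libraries with the present comparison.

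**Figure D2:**
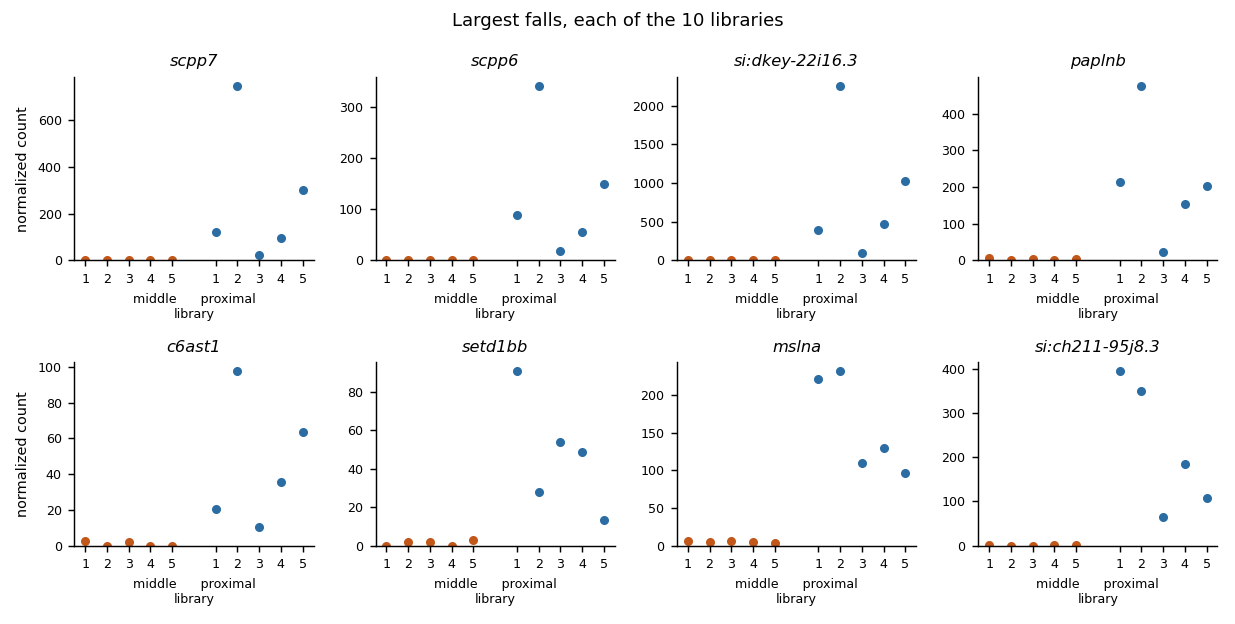
Normalized counts (vertical axes, linear) of 8 of the 10 genes with the largest falls in each of the 5 middle (orange) and 5 proximal (blue) libraries. Middle libraries lie at or near 0, and proximal library 2 is the highest for 7 of the 10 genes with the largest falls.

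The largest rises among called genes with the same minimum mean were smaller than the largest falls. The gene otofb encodes an otoferlin, a calcium sensor of vesicle release in hair cells. It had 67.3, 64.5, 103, 103 and 115 normalized counts in the middle libraries and 11.6, 17.9, 1.01, 17.2 and 16.4 in the proximal libraries, a 7.06-fold higher level in the middle fin (adjusted p = 3.14e-14). The homeobox gene emx2, whose product sets the orientation of hair cells in the zebrafish lateral line, had 82.6, 77.6, 58.5, 94.99 and 65.1 in the middle libraries against 11.6, 12.9, 8.10, 5.07 and 26.6 in the proximal ones, 5.89-fold higher (adjusted p = 3.27e-18). Neither gene had overlapping groups. The fibronectin type III domain gene fndc7b rose 4.96-fold, with 116 ± 28.3 against 23.3 ± 10.95. The C-reactive protein gene crp7, named for an acute phase protein, rose 4.49-fold, with 50.0 ± 13.1 against 11.2 ± 5.44. The type I keratin gene krtt1c19e, known as a basal epidermal keratin in zebrafish, was the most abundant gene among these rises. It held 18226, 24330, 24088, 24458 and 21736 normalized counts in the middle and 5547, 4862, 4710, 4594 and 6532 in the proximal libraries, 4.30-fold more in the middle fin (adjusted p = 9.95e-51). The remaining largest rises were genes known by clone names alone. They were si:rp71-1c10.11, ENSDARG00000095580, si:dkey-4p15.5, si:dkey-33m11.8 and si:dkey-61p9.7, with folds from 4.39 to 4.90.

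The smallest adjusted p-values belonged to genes with tight libraries. The gene listed as ntn5, which the authors' table names as netrin-1-like and which belongs to a family of axon guidance cues, had 144, 85.6, 131, 105 and 184 normalized counts in the middle libraries. In the proximal libraries it had 1257, 1549, 1430, 1151 and 1242, a 10.19-fold lower level in the middle fin (adjusted p = 1.63e-88). The matrix protein gene sned1 fell 6.93-fold, with 89.7, 69.5, 72.6, 88.9 and 85.4 in the middle libraries against 588, 592, 559, 614 and 463 in the proximal ones (adjusted p = 2.48e-86). For both genes the lowest proximal library was more than 5-fold above the highest middle library. The Eph receptor gene ephb2a, a receptor for ephrin guidance molecules, had 8.97, 6.05, 5.04, 11.1 and 10.17 in the middle against 85.9, 87.6, 90.1, 95.3 and 80.8 in the proximal libraries, 10.6-fold lower (adjusted p = 5e-36). The gene si:dkey-65b12.6 fell 2.50-fold, with 1857 ± 280 against 4638 ± 214.

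Among rises the smallest p-values included 3 secreted or matrix proteins. The fibronectin gene fn1b, which encodes an adhesive matrix glycoprotein, had 10988, 13803, 12769, 12160 and 12526 normalized counts in the middle libraries. The proximal libraries had 3606, 4224, 4352, 4590 and 3910, a 3.01-fold higher level in the middle fin (adjusted p = 2.88e-47). The fibrillin gene fbn2a, whose product forms microfibrils, rose 3.51-fold, with 342, 364, 431, 418 and 415 in the middle against 151, 106, 124, 65.9 and 115 in the proximal libraries. The myostatin gene mstnb, a TGF-beta family member that limits muscle growth in vertebrates, rose 3.67-fold, with 249, 242, 245, 270 and 277 in the middle and 53.1, 79.7, 80.0, 79.1 and 57.3 in the proximal libraries. None of these 3 genes had overlapping groups. The gene ENSDARG00000095580 had the smallest adjusted p among rises (1.56e-51), with 633 ± 74.0 against 130 ± 31.6.

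**Figure D3:**
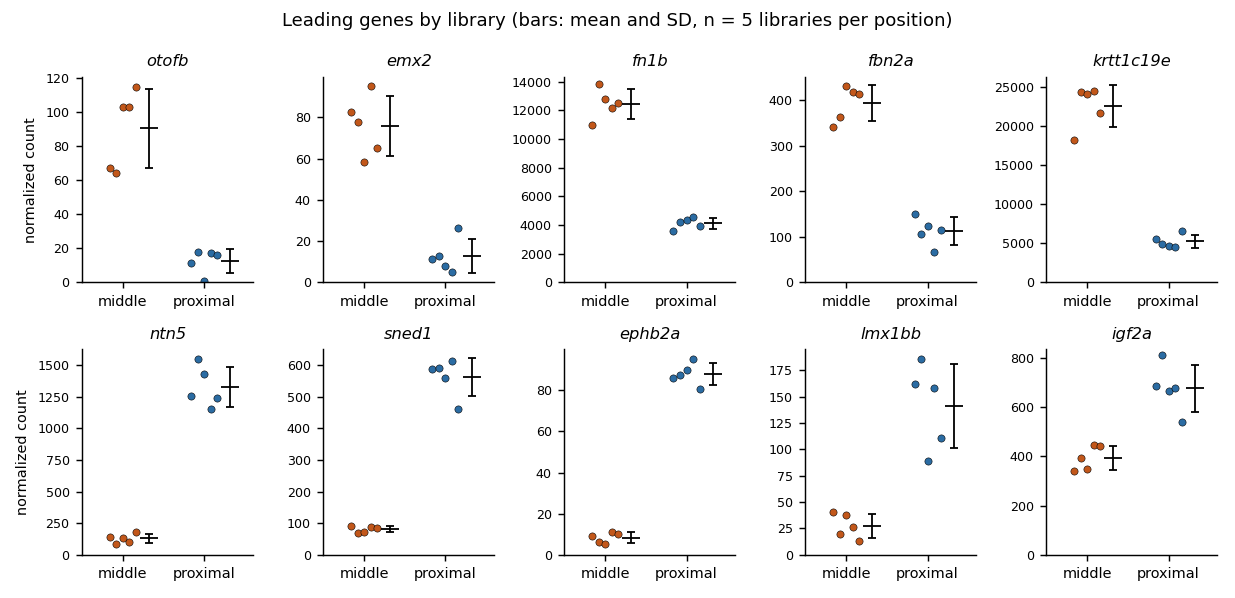
Normalized counts (vertical axes, linear, from 0) of 5 genes that were higher (top row) and 5 that were lower (bottom row) in the middle fin, 1 point per library with middle on the left and proximal on the right of each panel. Bars give the mean and SD of 5 libraries, and the groups do not overlap in any panel.

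Calls among transcription factors of appendage patterning differed in direction between lists, whose members were chosen with earlier results of these data known. Of 30 measured homeobox genes of the Meis, Pbx, Lmx1b, Lhx, Irx, Alx, Prrx and Shox groups, 11 fell in the middle fin and none rose, with a median log2 ratio of −0.62 over all 30. Of 27 measured Msx, Dlx, Sall, Sp and Zic genes, 7 rose and none fell, with a median of 0.43. All 7 were Dlx or Sall genes, and no Msx, Sp or Zic gene was called. Over all genes 3.51% rose and 3.8% fell, with a median of −0.01. The counts of the lists that follow are to be read against these shares. The LIM homeobox gene lmx1bb, whose mouse relative sets dorsal identity in limbs, fell 5.14-fold. It had 40.4, 20.2, 37.3, 26.3 and 13.2 normalized counts in the middle libraries and 162, 186, 89.1, 158 and 111 in the proximal ones (adjusted p = 1.02e-09). The next members were lhx9, another LIM homeobox gene, with 63.3 ± 3.69 against 119 ± 9.99, and the Iroquois gene irx5a, with 119 ± 15.3 against 202 ± 26.4. The other 8 genes called lower were irx2a, lhx2a, pbx1b, irx1a, meis2a, alx4a, pbx4 and meis1a. Their log2 ratios ran from −1.85 for irx2a to −0.46 for meis1a. The call for alx4a rested on a full set of libraries: with 1 library left out its limma adjusted p reached 0.0934. Genes called in the limma fits that each lacked 1 library numbered 8 to 11 of this list. The fit with the block of pairs called 16 lower and 2 higher of 22 tested.

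The spalt zinc finger gene sall1a rose 2.32-fold, with 324 ± 43.2 normalized counts in the middle and 139 ± 12.98 in the proximal fin. Its paralog sall3a rose 3.35-fold, with 40.3 ± 3.67 against 12.04 ± 3.37. The distal-less gene dlx1a rose 3.67-fold, with 47.1 ± 7.94 against 12.8 ± 3.03 (adjusted p = 1.25e-09). The other called members were dlx2a, dlx4a, dlx3b and dlx2b, with log2 ratios from 0.52 for dlx2b to 0.91 for dlx2a. Under the block of pairs 15 of the 24 members tested were called higher and none lower. HOX genes, which mark position along the body and appendages, had 1 rise and 1 fall among 47 measured. Their median log2 ratio was 0.04, and the block gave 4 higher and 3 lower of 34 tested. The posterior gene hoxa13b rose 1.70-fold, with 919 ± 210 against 542 ± 125 (adjusted p = 0.00823). The gene hoxb10a fell 1.44-fold, with 63.9 ± 12.8 against 92.2 ± 8.99 (adjusted p = 0.0453), and lost its limma call without middle library 4 or 5, at adjusted p = 0.0509 and 0.0563. No T-box or Hand gene of 11 measured was called by the authors' DESeq test, 4 were lower at an unadjusted p under 0.05, and limma called 1 of the 6 that passed its filter (2 with the block). The median log2 ratio was −0.22.

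Retinoic acid is made from retinol by dehydrogenases, bound by cellular proteins and nuclear receptors, and broken down by Cyp26 enzymes. Of 38 measured genes of this pathway 5 were higher and 8 lower in the middle fin, and the median log2 ratio was −0.05. The synthesis gene aldh1a2 fell 2.18-fold, with 109, 127, 124, 119 and 132 normalized counts in the middle libraries and 258, 293, 229, 368 and 184 in the proximal ones (adjusted p = 9.5e-05). The breakdown gene cyp26b1 rose 1.61-fold, with 1322 ± 91.4 against 819 ± 68.0 (adjusted p = 3.92e-08), and cyp26a1 was also called higher, with a log2 ratio of 0.72. The retinol dehydrogenase genes rdh8a and rdh10a were lower, at log2 ratios of −0.82 and −1.14. The receptor gene raraa fell 2.04-fold, with 138 ± 23.5 against 282 ± 34.4, and rxraa fell with a log2 ratio of −0.49. The binding protein gene crabp2a rose 1.505-fold, with 2857 ± 227 against 1899 ± 127, and its paralog crabp2b fell with a log2 ratio of −0.63. The beta-carotene oxygenase gene bco1, which cleaves carotenoids to retinal, rose 1.82-fold, with 542 ± 77.1 against 298 ± 56.8. This gene also stands on the list of xanthophore markers. The other calls were dhrs9, which was higher, and dhrs3a and rbp2a, which were lower, rbp2a with no read in the middle libraries.

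The Wnt pathway held more falls than rises. Of 67 measured members 4 rose, 12 fell and the median log2 ratio was −0.09. Limma called 7 higher and 16 lower. The rises dropped to 4 without middle library 3, middle library 4 or proximal library 4. The falls dropped to 10 without middle library 1 or proximal library 2. The block gave 12 higher and 19 lower of 59 tested. The ligand gene wnt10b fell 4.95-fold, with 9.87, 15.11, 15.13, 14.1 and 17.3 normalized counts in the middle libraries against 68.5, 82.6, 59.7, 79.1 and 64.5 in the proximal ones (adjusted p = 2.22e-18). The R-spondin gene rspo3, which encodes a secreted amplifier of Wnt signals, fell 4.45-fold, with 12.1 ± 6.22 against 54.1 ± 11.98. The genes rspo1 and rspo2 were also called lower, at log2 ratios of −0.66 and −0.62. Genes of secreted Wnt inhibitors went both ways. The secreted frizzled-related gene frzb fell 3.25-fold, with 483 ± 36.7 against 1569 ± 382, and sfrp1a, sfrp2, sfrp5 and dkk1a were lower too. The carboxylesterase gene notum1a, whose product inactivates Wnt ligands, rose 2.90-fold, with 281 ± 31.98 against 97.2 ± 20.2 (adjusted p = 1.56e-23). Its paralog notum1b rose 2.36-fold, with 23.2 ± 3.84 against 9.84 ± 4.93, and the Wnt inhibitor gene wif1 rose 1.95-fold, with 1158 ± 93.9 against 593 ± 114. The libraries of notum1b overlapped.

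In the Hedgehog pathway 6 of 25 measured members fell, 1 rose and the median log2 ratio was −0.19. The block gave 11 lower and 2 higher of 22 tested. The ligand gene shha had few reads, with 3.59, 4.03, 1.01, 4.04 and 1.02 normalized counts in the middle and 22.2, 16.9, 3.04, 15.2 and 25.6 in the proximal libraries (adjusted p = 0.00288). Proximal library 3 lay within the range of the middle libraries. The coreceptor genes boc and cdon fell 1.53-fold and 1.35-fold, with boc at 838 ± 121 against 1283 ± 144 and cdon at 893 ± 54.2 against 1203 ± 67.7. The other falls were gas1a, gli3 and hhip, and the secreted protein gene scube1 rose 2.23-fold, with 273 ± 48.1 against 122 ± 11.9. IGF genes encode growth factors and their binding proteins. Of 22 measured, 6 fell and none rose, with a median log2 ratio of 0.01 (6 lower and 4 higher of 19 tested with the block). All 3 called ligand genes were lower: igf2a had 394 ± 49.1 against 677 ± 95.8, igf1 had 99.3 ± 16.5 against 181 ± 23.7, and igf2b had 395 ± 26.1 against 605 ± 70.6. The adjusted p was 2.02e-07 for igf2a, 5.98e-07 for igf1 and 1.25e-05 for igf2b. The binding protein genes igfbp6b, igfbp5b and igfbp2b fell as well.

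Of 73 measured BMP and TGF-beta genes 6 rose and 6 fell, with a median log2 ratio of 0.04. Limma called 9 higher, 4 without proximal library 5 and 18 of 66 tested with the block of pairs. The rises held mstnb, the ligand genes bmp4 and bmp2a and the antagonist genes grem2b, nog3 and fstl1a. The BMP antagonist gene grem2b rose 9.26-fold, with 18.6 ± 8.64 against 2.00 ± 1.43, and bmp4 rose 1.48-fold, with 190.2 ± 20.2 against 129 ± 7.14. The falls held the ligand genes gdf7, bmp7a, bmp6 and tgfb2 and the antagonist genes fstb and sostdc1a. Follistatin gene fstb fell 1.97-fold, with 367 ± 43.0 against 725 ± 70.7 (adjusted p = 3.39e-14). The sclerostin domain gene sostdc1a fell 2.98-fold, with 27.5 ± 8.73 against 82.1 ± 14.2, and gdf7 had 3.22 ± 2.35 against 12.5 ± 3.92 (adjusted p = 0.00388).

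Of 40 measured FGF pathway genes 1 rose and 2 fell, close to the 7.31% called over all genes, with a median of 0.01. Under the block 5 were higher and 6 lower of 32 tested. The FGF feedback inhibitor gene il17rd rose 1.36-fold, with 377 ± 26.9 against 276 ± 40.1. The FGF binding protein gene fgfbp2a fell 1.61-fold, with 4634 ± 372 against 7466 ± 1155, and the receptor gene fgfr2 fell 1.29-fold, with 3105 ± 183 against 4019 ± 185. Of 29 Notch pathway genes only the ligand gene dlc was called, with 357 ± 62.7 against 256 ± 29.6 (adjusted p = 0.0203). The limma fit with all 15 libraries gave an adjusted p of 0.0879, and with the block 6 members of the list were called higher and 2 lower. Potassium channel and gap junction genes are known for effects on fin length when mutated in zebrafish. Of 108 measured, 2 rose and 4 fell, with a median of −0.12. These shares were below that of all genes for rises and close to it for falls. The block gave 7 higher and 6 lower of 57 tested. The channel genes kcnj3b and kcnk1a rose 1.98-fold and 1.29-fold, with 311 ± 63.8 against 157 ± 34.6 and 1203 ± 80.9 against 934 ± 115. The channel genes kcnq5a and kcnh1a fell 2.21-fold and 2.24-fold, with 64.0 ± 6.57 against 141 ± 15.2 and 45.2 ± 7.58 against 101 ± 18.8. The rare kcnq3 had 0.810 ± 0.8498 against 5.80 ± 1.86 (adjusted p = 0.021). The only gap junction gene called was cx43.4, which fell, with means of 390 in the middle and 507 in the proximal fin (authors' adjusted p = 0.0286).

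**Figure D4:**
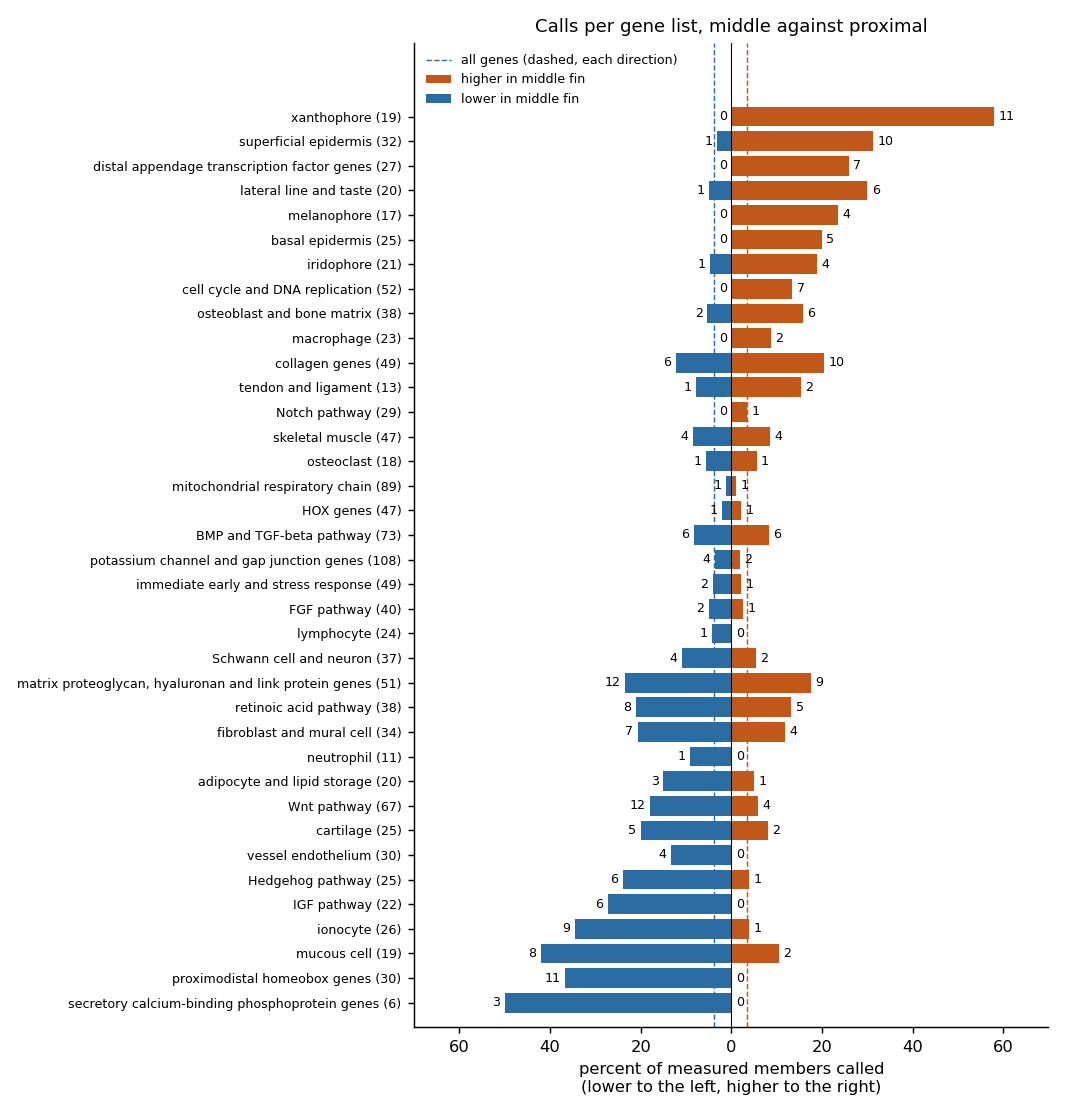
Percent of the measured members of each gene list (number of members in parentheses) that were called higher (orange, to the right) or lower (blue, to the left) in the middle fin, with the number of genes beside each bar. Dashed lines mark the shares over all genes, 3.51% higher and 3.8% lower, and lists with no call are not drawn.

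Matrix genes changed in both directions. Of 49 measured collagen genes 10 rose and 6 fell (median 0.06, and 16 higher and 6 lower of 45 tested with the block). Limma called 3 collagen genes lower without middle library 1 or proximal library 2. Of 51 proteoglycan, hyaluronan, link protein and other matrix genes 9 rose and 12 fell (median −0.13). Collagens of the epidermal attachment and basement membrane were among the rises: col17a1a, col17a1b, col18a1, col4a5 and col4a6. The hemidesmosome collagen gene col17a1a rose 3.72-fold, with 15486 ± 2173 against 4161 ± 895 (adjusted p = 3.46e-29). The gene col18a1 rose 1.80-fold, with 3868 ± 274 against 2144 ± 181, and the collagen VI gene col6a6 rose 2.401-fold, with 1246 ± 141 against 519 ± 108. Among the falls, the cartilage-type collagen genes col11a1b and col27a1b were 1.62-fold and 1.48-fold lower, with 2193 ± 350 against 3544 ± 132 and 976 ± 86.8 against 1448 ± 123. Their paralogs differed: col27a1a was lower too, while col11a1a was called higher, with means of 774 in the middle and 464 in the proximal fin. The collagen VIII gene col8a1a had 0, 1.01, 2.02, 2.02 and 0 normalized counts in the middle and 30.9, 32.9, 8.10, 33.5 and 12.3 in the proximal libraries, 23.3-fold lower in the middle fin. Its libraries did not overlap.

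Besides fn1b, the periostin gene postnb rose 2.09-fold, with 16011 ± 1270 against 7644 ± 519. The tenascin gene tnw rose 1.88-fold, with 1260.2 ± 109 against 671 ± 118. Falls were led by genes of hyaluronan-rich matrix. The link protein gene hapln1a fell 2.16-fold, with 6764 ± 143 against 14642 ± 2504 (adjusted p = 7.65e-11), and the aggrecan gene acana fell 6.26-fold, with 14.1 ± 4.18 against 88.4 ± 32.5. The versican genes vcana and vcanb, the second link protein gene hapln1b and the hyaluronan synthase gene has2 were also called lower. The spondin gene spon2b fell 1.92-fold, with 127 ± 8.90 against 244 ± 36.1. Neither of the 2 measured actinotrichia genes was called by DESeq or had an unadjusted p under 0.05, and their summed level was 7.18 to 19.1 normalized counts in the middle and 6.76 to 14.2 in the proximal libraries.

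Of 25 measured cartilage genes 2 rose and 5 fell, with a median of −0.13. Their summed level was 15441 to 17701 in middle libraries against 23692 to 31577 in proximal ones. Much of that gap is hapln1a, with means of 6764 in the middle and 14642 in the proximal fin, and fgfbp2a, with 4634 against 7466. Both also stand on other lists, of matrix and FGF pathway genes. The chondrogenic factor gene sox9a fell 1.86-fold, with 727 ± 125 against 1354 ± 111 (adjusted p = 1.5e-13), beside hapln1a and acana. The rises were the cartilage matrix gene ucmaa, at 339 ± 58.5 against 115 ± 19.7, and the matrilin gene matn4 at 289 ± 44.5 against 104 ± 35.0. Of 38 osteoblast and bone matrix genes 6 rose and 2 fell (median −0.00), against 10 higher and 10 lower of 37 tested with the block. The osteonectin gene sparc rose 1.67-fold, with 11582 ± 918 against 6951 ± 252, the alkaline phosphatase gene alpl rose 1.38-fold, with 795 ± 88.5 against 577 ± 70.25, and col11a1a rose 1.67-fold, with 774 ± 115 against 464 ± 114. The osteopontin gene spp1 fell 1.69-fold, with 343 ± 67.0 against 581 ± 158 (adjusted p = 0.0263), and limma with all 15 libraries gave an adjusted p of 0.0643. The other fall of this list was col11a1b, named above among the collagens, with means of 2193 in the middle and 3544 in the proximal fin (authors' adjusted p = 6.43e-09). In bulk samples such as these, fewer cells of a type and less RNA per cell cannot be told apart.

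The secretory calcium-binding phosphoprotein list held 6 measured genes, of which scpp6, scpp7 and spp1 fell and none rose, with a median of −0.98. Without any 1 of the proximal libraries limma called 1 of them, since scpp6 and scpp7 then had too few libraries with reads to pass its filter. Of 18 osteoclast genes, mmp14a rose 1.25-fold (1394 ± 120 against 1115 ± 96.8) and nfatc1 fell 1.46-fold (396 ± 57.2 against 576 ± 63.7), with a median of 0.00. These calls were 5.56% of the list in each direction, near the shares over all genes. Of 13 tendon and ligament genes 2 rose and 1 fell, with a median of −0.04. The tendon factor gene mkxb rose 1.75-fold, with 189.9 ± 31.995 against 109 ± 16.97, and tenomodulin gene tnmd rose 1.41-fold, with 281 ± 57.0 against 199.9 ± 27.2. The call for tnmd was the weaker of the pair (adjusted p = 0.0495, and up to 0.0995 in limma with 1 library left out). The tenascin gene tnc fell 1.42-fold, with 436 ± 52.3 against 621 ± 22.4.

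Of 34 fibroblast and mural cell genes 4 rose and 7 fell, with a median of −0.12. The microfibril gene fbn2a was among the rises, while the elastin genes fell: elna was 1.64-fold lower, with 175 ± 28.1 against 287 ± 21.2, elnb was 2.21-fold lower, with 101 ± 26.7 against 222 ± 59.5. The fibulin gene fbln5 was called lower too, with a log2 ratio of −0.51. Its relative fbln2 rose 1.63-fold, with 336 ± 50.2 against 206 ± 18.6. The small proteoglycan genes decorin and lumican moved apart: dcn was 1.34-fold lower, with 1816 ± 175 against 2438 ± 277, and lum 1.29-fold higher, with 4416 ± 616 against 3430 ± 352. The call for lum (adjusted p = 0.0299) did not pass limma scaled by the totals of solved genes (adjusted p = 0.0589). Without middle library 4, proximal library 1 or proximal library 5, limma called 2 members of the list higher, and with the block 5 higher and 13 lower.

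Most calls in the epidermal lists were rises. Of 32 superficial epidermis genes 10 rose and 1 fell, with a median of 0.27 (19 higher and 4 lower of 31 tested with the block). The list's summed level over 28 solved members was 262070 to 311377 in middle libraries against 206952 to 244024 in proximal ones. The 10 rises and this sum include krtt1c19e, which is also on the basal list. Its means were 22568 in the middle and 5249 in the proximal fin. The keratin gene krt1-19d rose 1.66-fold, with 11298 ± 1287 against 6803 ± 1193. The gene icn2 rose 1.605-fold, with 7312 ± 996 against 4557 ± 391. The keratin gene cyt1 fell 2.28-fold at a low level, 9.34 ± 2.43 against 21.3 ± 7.59, and its limma adjusted p rose to 0.0777 with 1 library left out. Of 25 basal epidermis genes 5 rose and none fell (11 and none with the block), with a median of 0.12 and summed levels over 23 solved members of 108725 to 130018 against 72313 to 79638. These rises were krtt1c19e, col17a1a, col17a1b, the hemicentin gene hmcn1 and the basement membrane adhesion gene frem1b. The genes krtt1c19e, col17a1a and col17a1b make up much of the gap between the sums. Means were 15486 against 4161 for col17a1a and 31723 against 20903 for col17a1b. The level of hmcn1 was 2.02-fold higher, with 1502 ± 185 against 745 ± 153.

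Calls among mucous cell genes were mostly falls. Of 19 measured mucous cell genes 8 fell and 2 rose (median −0.06), and the list's sum was 17293 to 26081 in middle libraries against 37538 to 42275 in proximal ones. Much of that gap is the gel-forming mucin gene muc5.2, with means of 9396 in the middle and 27861 in the proximal fin. It had 9477, 11949, 8430, 6266 and 10857 normalized counts in the middle libraries. The proximal libraries had 25278, 25834, 31152, 29784 and 27258, a 2.97-fold lower level in the middle fin (adjusted p = 5.57e-36). The other falls included muc5.1, foxa3, agr2, the glycosyltransferase gene galnt8b.1, with 12.02 ± 5.16 against 42.7 ± 6.30, and fer1l4, with 289 ± 58.1 against 625 ± 61.8. Against these, agr1 rose 1.51-fold, with 3477 ± 404 against 2304 ± 240, and creb3l1 rose 1.29-fold, with 761 ± 113 against 589 ± 51.5. The gene agr1 also stands on the superficial epidermis list, and creb3l1 reached a limma adjusted p of 0.0789 with 1 library left out.

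Ionocytes are epidermal cells that exchange ions with the water. Of 26 measured ionocyte genes 9 fell and 1 rose, with a median of −0.51. Sodium pump subunits were among the falls. The alpha subunit gene atp1a1a.2 had 8.29 ± 2.08 against 40.1 ± 6.80, atp1a1a.3 had 50.8 ± 12.8 against 167 ± 42.9, and the beta subunit gene atp1b1b had 28.1 ± 6.85 against 83.7 ± 11.3. The adjusted p was 5.92e-11 for atp1a1a.2, 5.13e-08 for atp1a1a.3 and 1.14e-11 for atp1b1b. The transporter genes slc9a3.2, slc8a1b, trpv6 and rhcga and the ionocyte factor genes foxi3b and gcm2 were called lower too. The carbonic anhydrase gene ca2, which many cell types express, rose 1.64-fold, with 5113 ± 728 against 3110.3 ± 355. It carries much of the list's reads, and the list's sum, 13650.3 to 15589 in middle libraries against 11594 to 14470.1 in proximal ones, overlapped between positions.

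Sensory organ genes of the lateral line and taste list ran mostly upward. Of 20 measured, 6 rose and 1 fell, with a median of 0.25. Besides otofb, the support and hair cell genes s100s and eya1 rose 3.30-fold and 1.63-fold, with 32.5 ± 10.26 against 9.85 ± 4.66 and 141 ± 16.2 against 86.4 ± 13.8. The other rises were tmc2b, a gene of the hair cell transduction channel, otofa and cldnb. The abundant cldnb, with means of 12913 against 10291, also stands on the superficial epidermis list. The myosin gene myo7aa fell 1.67-fold, with 31.9 ± 8.16 against 53.2 ± 10.7 (adjusted p = 0.019), and lost its limma call in fits without 1 library, at up to 0.0725. In the authors' deposited distal and middle table, which shares the middle libraries, the log2 ratio of distal over middle was −4.95 for otofb (adjusted p = 7.16e-27) and −2.21 for s100s (adjusted p = 4.04e-07). For emx2 that ratio was 0.35 (adjusted p = 0.118).

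Calls among genes of yellow and black pigment cells were all rises. Of 19 measured xanthophore genes, the markers of yellow pigment cells, 11 rose and none fell, with a median of 0.54, and the summed level was 21203 to 23299 in middle libraries against 18019.6 to 19575 in proximal ones. The carotenoid uptake receptor gene scarb1 rose 1.89-fold, with 789 ± 38.5 against 419 ± 32.5 (adjusted p = 8.89e-13). The genes aox5 and bscl2l rose 1.89-fold and 1.90-fold, with 557 ± 54.3 against 294 ± 28.7 and 468 ± 40.6 against 246 ± 40.2. The other rises were slc2a15b, slc22a7a, gch2, bco1, pax7b, spra, slc2a11b and pax7a, the pax7 pair being also on the muscle list. Of 17 melanophore genes 4 rose and none fell, with a median of 0.34. They were the melanin synthesis genes tyr, tyrp1a and tyrp1b and the melanosome transport gene mlpha. The gene mlpha had 528 ± 39.0 against 333 ± 11.2, tyr had 366 ± 62.6 against 226 ± 35.5, and tyrp1a had 82.0 ± 15.501 against 52.0 ± 9.91. The call for tyrp1a reached an adjusted p of 0.0613 in limma with 1 library left out.

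Iridophore genes, of the reflective pigment cells, changed in 5 of 21 members, 4 higher and 1 lower, with a median of 0.02. The endothelin receptor gene ednrba rose 1.73-fold, with 361 ± 14.1 against 209 ± 16.5, and ednrbb rose 6.04-fold from a low level, with 23.1 ± 7.63 in the middle and 3.81 ± 2.63 in the proximal fin. The receptor tyrosine kinase gene alk rose 1.52-fold, with 321 ± 23.5 against 212 ± 42.4, and alx4a, already named among the homeobox genes, fell. Iridophore sums of 7604 to 8205 in middle libraries against 7356 to 8065 in proximal ones overlapped.

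Of 30 measured endothelial genes 4 fell and none rose (6 lower and 1 higher with the block), with a median of −0.04, and the list's sum was 5520.3 to 6397 in middle libraries against 5577 to 6966 in proximal ones. The VE-cadherin gene cdh5, which encodes the junctional cadherin of endothelium, stood out with 0.897, 1.01, 3.03, 2.02 and 1.02 normalized counts in the middle libraries against 23.2, 25.9, 53.6, 51.7 and 30.7 in the proximal ones. It was 23.2-fold lower in the middle fin (adjusted p = 2.82e-10), far from the 1.56-fold fall of the von Willebrand factor gene vwf (174 ± 21.8 against 272 ± 43.7) and the 2.60-fold fall of mrc1a (14.7 ± 9.34 against 38.2 ± 7.73). The receptor gene flt1 was the fourth. No red blood cell gene of 10 was called by DESeq or limma, and none had an unadjusted p under 0.05 (median −0.27), while the block gave 1 call.

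Of 23 macrophage genes 2 rose and none fell (median 0.10; 5 higher and 2 lower with the block), namely the antigen presentation genes cd74b and cd74a, at 10660 ± 608 against 8250 ± 429 and 17083 ± 1498 against 13368 ± 1378. Of 11 neutrophil genes the lysozyme gene lyz was called, with 66.2 ± 23.1 against 119 ± 29.2 (adjusted p = 0.0235; list median −0.06). Of 24 lymphocyte genes gata3 was called, a factor gene that other cell types also use, with 61.1 ± 5.80 against 99.7 ± 20.4 (list median −0.28). The called shares were 8.7% higher for macrophage, 9.09% lower for neutrophil and 4.17% lower for lymphocyte genes. Over all genes they were 3.51% higher and 3.8% lower. The neutrophil and lymphocyte lists rest on 1 call each.

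Nerve and muscle lists were mixed. Of 37 Schwann cell and neuron genes 2 rose and 4 fell, with a median of −0.01. The shares were 5.41% higher and 10.8% lower, against 3.51% and 3.8% over all genes. The myelin genes mbpa and mpz fell 1.57-fold and 1.67-fold, with 313 ± 20.6 against 493 ± 29.8 and 272 ± 51.9 against 454 ± 65.3, and plp1b fell with a log2 ratio of −0.57. The neurotrophin receptor gene ntrk3a fell 4.05-fold, with 5.999 ± 2.49 against 24.3 ± 6.65. The synaptic vesicle gene syt1a rose 1.75-fold, with 298 ± 51.5 against 169.9 ± 34.1, and the claudin gene cldnk had 133 ± 20.9 against 95.8 ± 12.98 (adjusted p = 0.0392, and 0.051 in limma with all 15 libraries). Of 47 skeletal muscle genes 4 rose and 4 fell, with a median of −0.20. The giant sarcomere protein genes ttna and ttnb fell 2.32-fold and 1.72-fold, with 137 ± 35.2 against 319 ± 57.9 and 41.0 ± 8.29 against 70.4 ± 8.44. The calcium release channel gene ryr1a had 11.7 ± 3.63 against 24.2 ± 7.97 (adjusted p = 0.0239, and 0.059 in limma). The rises were the myoglobin gene mb, with 288 ± 25.5 against 133 ± 16.1, the triadin gene trdn, with 48.4 ± 10.27 against 18.99 ± 5.01, pax7b, with 495 ± 42.7 against 322 ± 42.1, and pax7a.

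Of 20 adipocyte and lipid storage genes 1 rose and 3 fell, with a median of −0.38. The triglyceride synthesis gene dgat2 rose 2.92-fold, with 287 ± 32.3 against 98.2 ± 20.8 (adjusted p = 4.17e-24). The lipoprotein lipase gene lpl fell 3.56-fold, with 9.32 ± 2.16 against 33.2 ± 10.5, and the apolipoprotein gene apoa1a had 13.97 ± 2.41 against 26.5 ± 6.01 (adjusted p = 0.0466, and 0.0503 in limma without middle library 2). The lipolysis inhibitor gene g0s2 had no read in the middle libraries and 6.62 ± 5.59 in the proximal ones (adjusted p = 0.0098). With the floor of 3 reads over the middle libraries it was at least 11.2-fold lower in the middle fin.

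Calls among cell cycle genes were genes of DNA replication. Of 52 measured cell cycle genes 7 rose and none fell, with a median of 0.33. The rises were the replicative helicase genes mcm2, mcm3, mcm4, mcm5 and mcm6, the sliding clamp gene pcna and the nucleotide synthesis gene dhfr, with log2 ratios from 0.44 for mcm3 to 0.72 for dhfr. The gene mcm4 had 978 ± 123 normalized counts in the middle and 680.2 ± 91.2 in the proximal fin (adjusted p = 0.000543), dhfr had 113 ± 14.8 against 68.1 ± 18.3, and mcm3 had 782 ± 83.6 against 578 ± 110.1. Limma called 3 members higher without proximal library 2, 4 without proximal library 3 and 11 without proximal library 1, so the count depends on single libraries. With the block of pairs it called 19 higher and none lower of the 49 it tested, against 28.2% called over all genes. Without proximal library 2, mcm3 had an adjusted p of 0.07. Of 49 immediate early and stress genes klf4 rose 1.52-fold (7256 ± 1000 against 4774 ± 731), and hspb1 (39.8 ± 6.73 against 79.2 ± 21.9) and atf3 (124 ± 32.1 against 202 ± 47.0) fell, with a median of −0.05 (9 higher and 7 lower with the block). The call for atf3 (adjusted p = 0.0388) did not pass limma without middle library 3, at 0.0672.

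Of 34 glycolysis genes (median 0.03) none was called by the authors' DESeq test or by limma, and 1 was higher and 1 lower at an unadjusted p under 0.05. Of 90 cytosolic ribosomal protein genes (median −0.06) neither test called any and none had an unadjusted p under 0.05, while limma scaled by the totals of solved genes called 3 lower. The block of pairs gave 4 glycolysis genes higher and 3 lower, and 1 ribosomal protein gene higher and 8 lower. Of 89 nuclear genes of the respiratory chain uqcrq rose 1.28-fold, with 513 ± 80.8 against 402 ± 20.8 (adjusted p = 0.0464), and cox4i2 fell 1.44-fold, with 92.0 ± 9.36 against 133 ± 16.5. The median of that list was 0.14. Limma called 5 members higher, and from 1 to 8 with 1 library left out. The lowest count came without middle library 2 or without proximal library 2, 3 or 5. With the block of pairs 34 of 86 tested were called higher. In addition the call for uqcrq did not pass limma without proximal library 2, at 0.084.

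The 10 most abundant called genes changed little in fold. Their per-library values were solved for 5 of them. ENSDARG00000080337, a feature without a symbol, took 10.9% of the normalized counts in the middle and 14.1% in the proximal fin, and was 1.34-fold lower in the middle fin by the authors' means (adjusted p = 0.00145). The signal recognition particle RNA gene rn7sl1 took 5.83% against 7.22% and was 1.28-fold lower (adjusted p = 0.00851). By the authors' means the noncoding RNA malat1 was 1.62-fold lower, ENSDARG00000082753 was 1.31-fold lower and the keratin gene krt15 was 1.33-fold higher in the middle fin. The fibrillar collagen genes of bone and dermis col1a1b and col1a2 rose 1.34-fold and 1.32-fold, with 37476 ± 3213 against 28028 ± 3375 and 35080.3 ± 2993 against 26613 ± 3121. The desmosome gene pkp3a rose 1.25-fold, with 37954 ± 3144 against 30315 ± 1817, and si:dkey-7c18.24 rose 1.57-fold, with 52949 ± 4650.1 against 33763 ± 2935. The mitochondrial gene mt-co3 fell 1.23-fold, with 26508 ± 1531 against 32635 ± 1958 (adjusted p = 0.0495).

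Whether a gene changed differently from base to mid-fin than from mid-fin to tip was tested as 1 contrast in a limma fit of all 15 libraries, the middle minus proximal change minus the distal minus middle change on the log2 scale. Of 18871 genes tested 2158 passed an adjusted p of 0.05, or 11.4%, of which 1055 had a positive and 1103 a negative contrast. This fit had no block for matched libraries and treated all 15 as independent. By their deviations, the middle libraries also matched 1 distal library each, with correlations across genes of 0.21 to 0.56. In the authors' deposited tables the step from middle to distal fin had 6077 of 23232 genes called, or 26.2%, against 7.31% for the step from proximal to middle. Both steps share the middle libraries, so their values are given side by side. The fibrinogen-like gene fgl2b had 387 ± 25.9 normalized counts in the proximal, 363 ± 32.8 in the middle and 21.9 ± 5.28 in the distal fin, with no call for the basal step (adjusted p = 0.846) and a contrast of 3.95 ± 0.21 (SE; adjusted p = 6.83e-10). The emilin gene emilin2b, of elastic fiber matrix, had 1156 ± 123, 821 ± 45.3 and 83.2 ± 5.44 from proximal to distal. The gene ENSDARG00000069043 had 1222 ± 117, 855 ± 72.3 and 25.6 ± 10.5 in the same order.

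Some genes turned at mid-fin. The keratin gene krtt1c19e had 5249 ± 807 normalized counts in the proximal, 22568 ± 2671 in the middle and 2071 ± 875 in the distal fin, and its contrast of 5.62 ± 0.29 was that of a peak in the middle (adjusted p = 6.83e-10). The gene si:ch211-76l23.4 peaked in the middle as well, with 5586 ± 183, 7322 ± 615 and 1873 ± 234 from proximal to distal. So did postnb, with means of 7644, 16011 and 7697 and a contrast of 2.12 ± 0.12. The adjusted p of the contrast was 1.05e-09 for both genes. The matrix gene sned1 ran the other way, with 563 ± 59.5, 81.2 ± 9.497 and 212 ± 26.7, and a contrast of −4.17 ± 0.23. The myocilin gene myoc fell 2.03-fold in the middle fin and was highest in the distal fin, with 305 ± 77.2, 150.4 ± 13.3 and 4066 ± 239 (contrast −5.75 ± 0.25, adjusted p = 1.29e-10). Its called fall over the basal step was a small part of its range. The angiopoietin-like gene angptl2a had 269 ± 53.5, 155 ± 14.6 and 1119 ± 94.9 from proximal to distal. The thrombospondin gene thbs4b and the hemicentin gene hmcn2 were not called over the basal step (adjusted p = 0.962 and 0.844). Their means from proximal to distal were 763, 744 and 4478 for thbs4b and 315, 296 and 2889 for hmcn2.

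**Figure D5:**
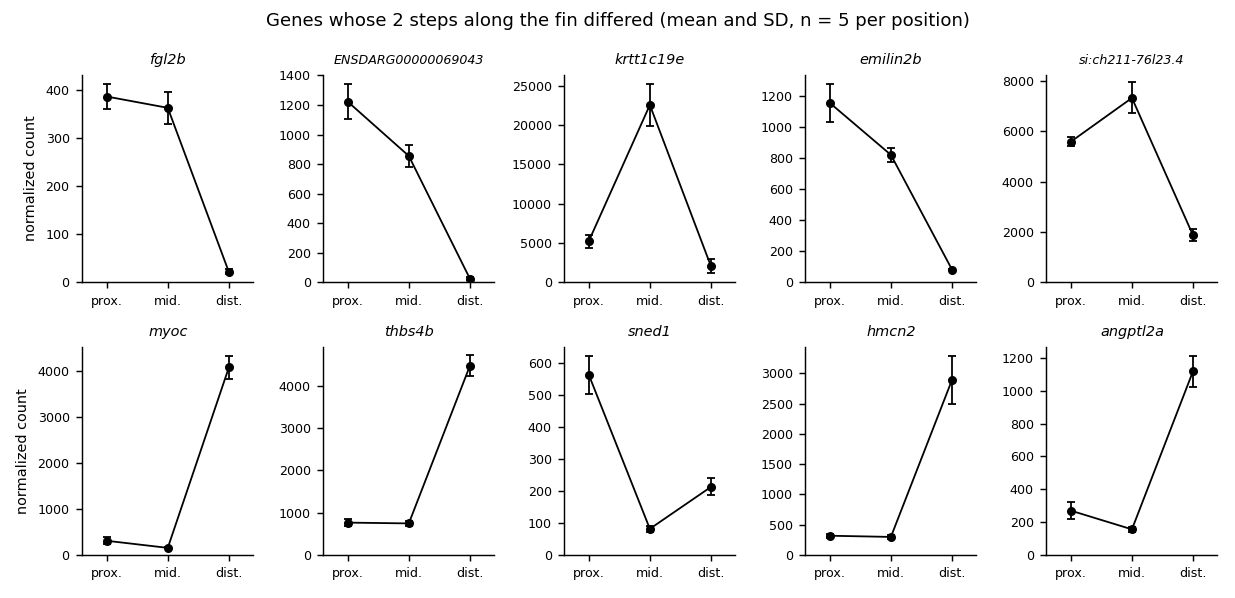
Normalized counts (vertical axes, linear, from 0) at the proximal, middle and distal position, as mean and SD of 5 libraries. Shown are the 5 genes with the most positive (top row) and the 5 with the most negative (bottom row) evidence for a difference between steps. Genes without solved counts in all 15 libraries were passed over. The gene krtt1c19e peaks and sned1 dips in the middle fin, while thbs4b and hmcn2 change little before the distal fin.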

How the data were processed

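Total RNA of middle and proximal caudal fin regions of zebrafish was read in 5 libraries per position, and reads were assigned to groups by the position in the labels. GRCz10 as the genome and TopHat2 2.0.13, HTSeq and DESeq as tools come from the submitters' processing notes. The annotation release, strand setting and read filters are not given in the sources, so overlapping and antisense genes and close paralogs could share reads. Per the file headers, the authors deposited 1 mean signal value per position, a fold (ratio of the means), its log2, a DESeq p-value and an adjusted p-value. The ratio was recomputed with 0.001 added to both means for all 23556 genes, so folds of genes with a mean of 0 were replaced by bounds. The score of the authors' deposited table of monotonic genes was not used as a result.

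A mean with 15 printed digits is a sum of 5 whole reads, each divided by a size factor. Enumeration of the solutions gave all 10 counts for 23531 genes. The means of the monotonic table, which has size factors of its own and was not used in the recovery, served as a check. With its 5 size factors per position fitted on 571 genes, the recovered counts of the other 570 genes gave their means at both positions within a relative difference of 1e-12. In simulated means, used to test the recovery, every single solution was right. The 25 genes without a single solution are given by the authors' means alone.

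A gene was called at an authors' adjusted p under 0.05. The design planned a count test if libraries were deposited; the files hold means, so the authors' statistics were used, and limma 3.58.1 (voom, R 4.3.3, at least 10 reads in at least 5 libraries) on recovered counts was the alternative. It was tested on simulated data. A fit with a block for each pair of matched libraries was added after seeing the data. Further alternatives were no filter, other scales, a stricter threshold, all 15 libraries and leaving out each library. The members and the 42 gene lists were chosen with earlier results of these data known, and lists are described by counts and medians with no test of a list. Named genes are the 10 largest rises and falls among called genes with a mean of at least 20, the 10 most abundant called genes, the 5 smallest adjusted p-values in each direction, up to 3 called members per list and direction, and 5 genes per direction of the contrast between steps. For the contrast, genes without solved counts in all 15 libraries were passed over. Other list members are named where a list's calls are spelled out. Some genes with clone names are given by Ensembl ID. Symbols came from the table for 20924 genes and from a reference list of names for 1337.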

Additional observations from a re-analysis of the deposited data

Results flagged for a closer look

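Among the named genes, 330 groups of 5 libraries were examined, and in 13 of them 1 library lay far from the other 4 (gap over range above Dixon's critical value of 0.71). For independent normal values this limit flags about 1 group in 20. The groups here are counts from the same libraries and need not follow that rate, so the number of flags does not settle whether they are chance. High values in the middle fin were 81.9 normalized counts for si:dkey-61p9.7 (library 4, next 42.4), 338 for notum1a (library 3, next 273), 442 for igf2b (library 4, next 389), 19243 for col17a1a (library 4, next 15510), 385 for ednrba (library 1, next 359) and 6369 for ca2 (library 3, next 5128). For si:dkey-22i16.3 the value of 1.02 in middle library 5 is its single read. Low values in the middle fin were 97.0 for cldnk (library 4, next 133) and 461 for aox5 (library 1, next 566). High values in the proximal fin were 731 for fer1l4 (library 5, next 612), 3741 for ca2 (library 2, next 3025) and 51.8 for lpl (library 2, next 29.9). The low value was 4719 for krt1-19d (proximal library 3, next 6913). Middle library 4 held 4 of the 13. For ca2 the highest proximal library stayed below the lowest middle library.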

How the results depend on the processing

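Requiring an adjusted p under 0.01 left 1132 calls (527 higher), and requiring a 2-fold change left 486 (155 higher, 331 lower), with 76 of 167 called named genes and 77 of 234 called list members. Limma with all 15 libraries called 2606 genes (1311 higher), and with totals of solved genes as scale it called 1416 lower. Leaving out each library in limma gave 1718 to 2179 calls, 867 to 1149 higher and 849 to 1064 lower, against 2331 with all 10. Named genes called in the same direction then numbered 136 to 150, list members called 215 to 248, and the contrast between steps called 1591 to 2303 genes. Over 3314 values of named genes under alternatives, 3100 kept their direction and their side of the threshold, 214 kept the direction only and none reversed. The replicate block, chosen after seeing the data, used libraries matched by their deviations, since the recovered libraries carry no replicate numbers of the labels. It gave 5211 calls (2778 higher, 2433 lower), with 156 named genes and 472 list members, and the contrast between steps was not fitted with it. The remaining alternatives kept the numbers of calls within 1.5 times. Per-library depth sets the floor, so genes with few reads, such as shha, kcnq3, gdf7 and g0s2, have wide errors.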

Other observations

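Of the genes not called whose counts were solved, 6 with a mean of at least 20 normalized counts over both positions differed at least 4-fold in their means. Proximal library 4 was the highest for 3 of them, with 159 normalized counts of gig2l (next highest of the 10 libraries 10.6), 140 of mxb (next 38.6) and 174 of ENSDARG00000007199 (next 16.4). The gene mxb belongs to the interferon-induced Mx family, and gig2l is named for induction by a fish reovirus. Middle library 4 was the highest for ENSDARG00000081535, at 765 (next 82.4), and for ENSDARG00000090323, at 820 (next 391, also a middle library). The sixth, si:ch211-106n13.3, was highest in proximal library 2, at 160.3 against 53.2 in the next. The choice of these genes was made with their values in view.

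Over 14522 genes, the correlations behind the pairs of libraries were 0.55, 0.58, 0.21, 0.52 and 0.43 for middle libraries 1 to 5, matched with proximal libraries 5, 4, 2, 1 and 3. The next best proximal library reached 0.07 at most. These are correlations across genes, which are not independent replicates.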
